A study of Mus musculus with 15 samples.

Results

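This account covers the odorant receptor genes whose older symbols run from Olfr828 to Olfr985 in the phospho-S6 transcriptome of the mouse olfactory epithelium. The symbol of each gene identifier decided membership. Pseudogenes with a -ps suffix were left out, as were 9 receptors of this range that the rule sets apart (Olfr847, Olfr874, Olfr876, Olfr881, Olfr889, Olfr922, Olfr923, Olfr983 and Olfr984). This left 101 members of 1107 intact receptor genes and 57010 genes in the table. Counts of called members therefore do not cover the whole number range. Intact here means only a symbol without the -ps suffix, and reading frames were not checked. Among the members, RefSeq lists Olfr844 and Olfr908 as transcribed pseudogenes and Olfr915 as miscellaneous RNA.

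The libraries came from wild-type male C57BL/6J mice, 8 weeks of age, kept singly without odour for 4 h and then exposed for 90 min, with 3 biological replicates, each taken as 1 mouse, in each of 5 groups. Control mice met empty filter papers. Acetophenone with decanal was given to the A+D and A&D groups. Octanal with cis-3-hexenol was given to the O+C and O&C groups. Each odorant was used at 10 µL. In A+D and O+C both liquids were on 1 paper, and in A&D and O&C each had its own paper, with a gap of 1 mm between the papers. No group received 1 odorant alone, so the part of each component cannot be told apart.

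An odorant receptor is a G protein-coupled receptor in the cilia of an olfactory sensory neuron, and each mature neuron expresses 1 receptor gene from 1 allele. A bound odorant activates the G protein Golf (Gnal) and adenylyl cyclase (Adcy3), and cyclic AMP opens the channel that depolarises the cell. Active neurons phosphorylate ribosomal protein S6, so precipitating phosphorylated ribosomes enriches the receptor messenger RNA of the neurons that responded. A higher level of a receptor transcript in the precipitate therefore reads out activity of the neurons that carry it. In bulk tissue, a change in the number of such neurons and a change in RNA per neuron cannot be told apart.

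All 110 intact receptors of the number range, the 9 set apart included, are on chromosome 9 in the GENCODE M21 annotation of GRCm38. That annotation gave names, gene order and coding sequences only. They form 2 clusters with 163 other protein-coding genes between them. Olfr828 to Olfr873 make up the first cluster (30 members) and Olfr874 to Olfr985 the second (71 members). By the MOR family numbers in the RefSeq synonyms, the largest families were MOR171 with 27 members, MOR165 and MOR224 with 8 each, and MOR162 with 7.

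The members that rose with acetophenone and decanal came from 4 families (MOR162, MOR165, MOR167 and MOR170) and are shown here by a stretch of their coding sequences, so that their likeness can be seen. The stretch covers the end of the third transmembrane segment. Capitals mark the 3 codons of the acidic residue, arginine and tyrosine that are common in this receptor class. A search for them gave no single match in some other members, such as Olfr870 and Olfr981. Olfr888 and Olfr894, the nearest relatives of Olfr890 and Olfr895, are added for comparison. Positions count from the A of the start codon as base 1, and the sequences are from GENCODE M21 transcripts (GRCm38).
Olfr890, coding bases 346 to 408: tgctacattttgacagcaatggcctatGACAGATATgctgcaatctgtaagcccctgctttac
Olfr888, coding bases 346 to 408: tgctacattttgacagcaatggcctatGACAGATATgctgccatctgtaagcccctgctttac
Olfr901, coding bases 334 to 396: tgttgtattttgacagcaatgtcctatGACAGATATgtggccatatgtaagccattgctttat
Olfr895, coding bases 352 to 414: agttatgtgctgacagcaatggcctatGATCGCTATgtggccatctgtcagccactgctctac
Olfr894, coding bases 343 to 405: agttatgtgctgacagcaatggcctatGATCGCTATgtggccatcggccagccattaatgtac
Olfr898, coding bases 352 to 414: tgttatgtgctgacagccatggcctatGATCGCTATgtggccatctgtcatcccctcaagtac
Olfr904, coding bases 334 to 396: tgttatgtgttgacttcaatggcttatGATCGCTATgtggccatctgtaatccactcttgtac
Olfr913, coding bases 334 to 396: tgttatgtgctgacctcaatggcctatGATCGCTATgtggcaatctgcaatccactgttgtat

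Over whole coding sequences, Olfr890 and Olfr901, both MOR162, were 84.9% identical, and Olfr895 and Olfr898, both MOR170, were 81.8% identical. Olfr904 (MOR167) and Olfr913 (MOR165) were 76.9% identical to each other. The other pairs among these 6 genes lay between 65.9% and 70.1%, the latter for Olfr901 and Olfr904. Thus the 6 genes are not near-copies of one another, and their counts were whole numbers in at least 12 of 15 libraries. Some had closer relatives outside the members: Olfr898 was 93.4% identical to Olfr251, and Olfr890 was 90.7% identical to Olfr889. Olfr870, described below, was 97.5% identical to Olfr871. Among all members, only Olfr910 and Olfr912, which were 95.9% identical, had fractional counts in more than 7 libraries. Reads of these 2 genes are taken to be shared, and their values are uncertain.

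The libraries held 22704193 to 25287077 counts. Most members were rare: the median member had a mean level of 0.358 CPM (counts scaled to library size, after TMM), against 1.02 CPM over all 1107 intact receptors. Only 60 of the 101 members passed the count filter, 14 in the first cluster and 46 in the second. None of the 41 others exceeded 16 counts in any library. Among them 7 had no count in any library, which allows a level of up to 0.00832 CPM over the 15 libraries (3 counts in all, counting error only). Olfr890, Olfr898, Olfr904 and Olfr918 reached 10 counts mostly in acetophenone and decanal libraries and so entered the tests through those groups. Fold changes are on a log2 scale, p-values are from edgeR's quasi-likelihood test adjusted over all 19229 genes tested, and "called" means an adjusted p below 0.05. Statements that libraries of 2 groups do not overlap describe named members only, and the share over all genes was not counted.

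The olfactory epithelium label fitted its defining cell type: all 15 markers of mature olfactory sensory neurons were found, and their summed level ran from 9825 to 10838 CPM in Control and from 16526 to 22386 CPM in O&C. The 6 immune markers, by contrast, summed to 787 to 1187 CPM in Control, 517 to 549 CPM in O+C and 447 to 652 CPM in O&C. Red blood cell markers summed to 18046 to 28688 CPM in Control and 10147 to 14338 CPM in O&C, where 5 of 5 were called lower. In O&C 3 of 6 sustentacular and 3 of 5 respiratory ciliated markers were called lower as well, beside 5.41% of all genes. Library A+D 2 was the least like the rest, its correlations averaging 0.958 where those of each other library averaged 0.970 to 0.978. The gland product Obp2a was below 10 CPM in 5 libraries (O&C 1, O&C 3, A&D 1, A+D 2 and Control 1) and at 109 CPM or more in the rest. The part of these differences in the results was not tested, beyond the fit with a term for Obp2a.

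Summed over the 101 members, the level was higher than Control with acetophenone and decanal and lower with octanal and cis-3-hexenol, given here without a test. Their summed level was 62.0 ± 10.3 CPM in Control (SD, n = 3), 86.8 ± 6.02 CPM in A+D and 109.8 ± 15.6 CPM in A&D. The octanal and cis-3-hexenol libraries ran from 40.6 to 49.4 CPM (O+C, mean 45.0) and from 36.2 to 49.6 CPM (O&C, mean 44.9). Every A+D and A&D library lay above every Control library, and every O+C and O&C library lay below them. As a share of all receptor counts, the members took 1.88% ± 0.147 in Control, 2.29% ± 0.223 in A+D and 2.31% ± 0.275 in A&D. Their share was 0.957% ± 0.106 in O+C and 0.836% ± 0.0178 in O&C. The base of these shares differed between the groups. All intact receptors summed to 2954 to 3538 CPM in Control, 3213 to 4290 in A+D and 4571 to 4839 in A&D. They summed to 4452 to 4865 CPM in O+C and 4294 to 5991 in O&C. The lower shares there therefore also reflect a higher receptor total.

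**Figure D1:**
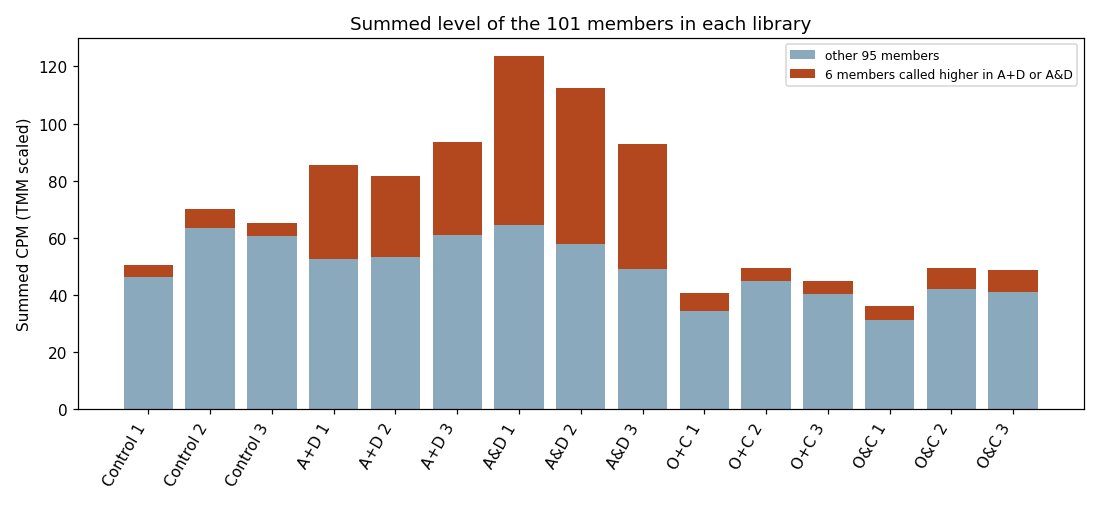
Summed CPM of the 101 members in each of the 15 libraries (y axis), split into the 6 members called higher with acetophenone and decanal (red) and the other 95 (blue). The red part is 28.4 to 59.4 CPM in A+D and A&D libraries and at most 7.79 CPM in all others.

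Olfr890, Olfr895, Olfr898, Olfr901, Olfr904 and Olfr913 together summed to 5.15 ± 1.33 CPM in Control, 31.1 ± 2.37 in A+D and 52.6 ± 8.02 in A&D (SD, n = 3). The other 95 members summed to 56.8 ± 9.13 CPM in Control, 55.7 ± 4.64 in A+D and 57.2 ± 7.63 in A&D. In O+C and O&C those 95 summed to 39.9 ± 5.14 and 38.1 ± 5.97 CPM. These sums are descriptions, since the 6 genes were picked by their calls.

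The comparison of A+D with Control asks which receptors respond when both odorants evaporate from 1 paper. Olfr890, Olfr895, Olfr901, Olfr904 and Olfr913 were called higher, 5 of 60 tested members (8.33%), beside 0.296% of all genes and 5.31% of all intact receptors tested. Olfr890 and Olfr904 passed the count filter mostly through acetophenone and decanal libraries, so this share is a description. No member was called lower, beside 0.026% of all genes; 2 were lower at an unadjusted p below 0.05, and DESeq2 also called 0. The median tested member stood at 0.07, all receptors at -0.06 and all genes at 0.02.

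Olfr901 (ENSMUSG00000052058), of family MOR162, had 42, 83 and 68 counts in the Control mice and 461, 345 and 530 in the A+D mice. No A+D library overlapped Control. Its level rose from 2.61 ± 0.826 to 18.7 ± 3.21 CPM, by 2.84 ± 0.26 on the log2 scale (SE, adjusted p = 5.55e-06). Olfr913 (ENSMUSG00000059189), of family MOR165, had 38, 34 and 18 counts in Control and 162, 112 and 110 in A+D. It rose by 2.15 ± 0.29 (adjusted p = 0.000592). Olfr895 (ENSMUSG00000096427), of family MOR170, had 9, 16 and 15 counts in Control and 56, 53 and 64 in A+D, again without overlap. It rose by 2.16 ± 0.32 (adjusted p = 0.00121). These 3 calls held with any 1 of the 6 libraries left out, and Olfr895 missed the threshold only with the fit limited to the 2 groups (adjusted p = 0.0515).

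Olfr904 (ENSMUSG00000094380) and Olfr890 (ENSMUSG00000096409) rose from lower counts and less firmly. Olfr904 had 6, 13 and 4 counts in Control and 38, 41 and 22 in A+D, a rise of 2.19 ± 0.44 (adjusted p = 0.0312). Olfr890 had 1, 11 and 8 counts in Control and 41, 63 and 36 in A+D, a rise of 2.86 ± 0.58 (adjusted p = 0.0394). In both genes all A+D mice lay above all Control mice. The Olfr904 call was lost without Control 1 (adjusted p = 0.214), Control 3 (0.118) or A+D 2 (0.0835). That of Olfr890 was lost without Control 1 (0.18), Control 2 (0.0648), Control 3 (0.0934), A+D 2 (0.0918) or A+D 3 (0.0677). The count of called members was 3 without Control 1, Control 3 or A+D 2, and 2 with the fit limited to the 2 groups.

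A&D against Control puts the same odorants on separate papers. The same 5 genes and Olfr898 were called higher, 6 of 60 tested members (10.0%), beside 1.0% of all genes and 10.3% of all intact receptors tested. The share among members was thus near that of receptors in general. It is a description, since Olfr890, Olfr898 and Olfr904 passed the count filter mostly through acetophenone and decanal libraries. No member was called lower, beside 0.0208% of all genes; 2 were lower at an unadjusted p below 0.05, and DESeq2 also called 0. The A+D and A&D comparisons share their Control libraries.

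Olfr901 had 791, 614 and 475 counts in A&D and reached 26.4 ± 7.45 CPM, a rise of 3.34 ± 0.27 (adjusted p = 4.64e-07). Olfr904 had 156, 148 and 134 counts there and rose from 0.309 ± 0.186 to 6.13 ± 0.697 CPM, by 4.28 ± 0.43 (adjusted p = 6.15e-06). No A&D library of Olfr904 came near the 4 to 13 counts of Control. Olfr895 had 161, 124 and 109 counts and rose by 3.34 ± 0.32 (adjusted p = 3.04e-06). Olfr913 had 205, 301 and 290 counts and rose by 3.19 ± 0.29 (adjusted p = 2.28e-06). These 4 calls held with any 1 library of the 2 groups left out.

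Olfr898 (ENSMUSG00000094588), like Olfr895 of family MOR170, had 4, 9 and 3 counts in Control and 32, 40 and 57 in A&D. It rose by 3.02 ± 0.62 (adjusted p = 0.0171). In A+D it had 19, 27 and 32 counts, above every Control library, and a fold change of 2.32 ± 0.62 that was not called (adjusted p = 0.166). DESeq2 called it in A+D (adjusted p = 0.0211), as did the fit without A+D 1 (0.0496). Olfr890 had 43, 43 and 32 counts in A&D and rose by 2.59 ± 0.58 (adjusted p = 0.0369). The A&D call of Olfr898 ended when A&D 2 (0.0553), A&D 3 (0.0604), Control 1 (0.132) or Control 3 (0.0994) was left out. That of Olfr890 was lost without Control 1 (0.17), Control 2 (0.0542), Control 3 (0.0994), A&D 1 (0.135) or A&D 2 (0.137).

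**Figure D2:**
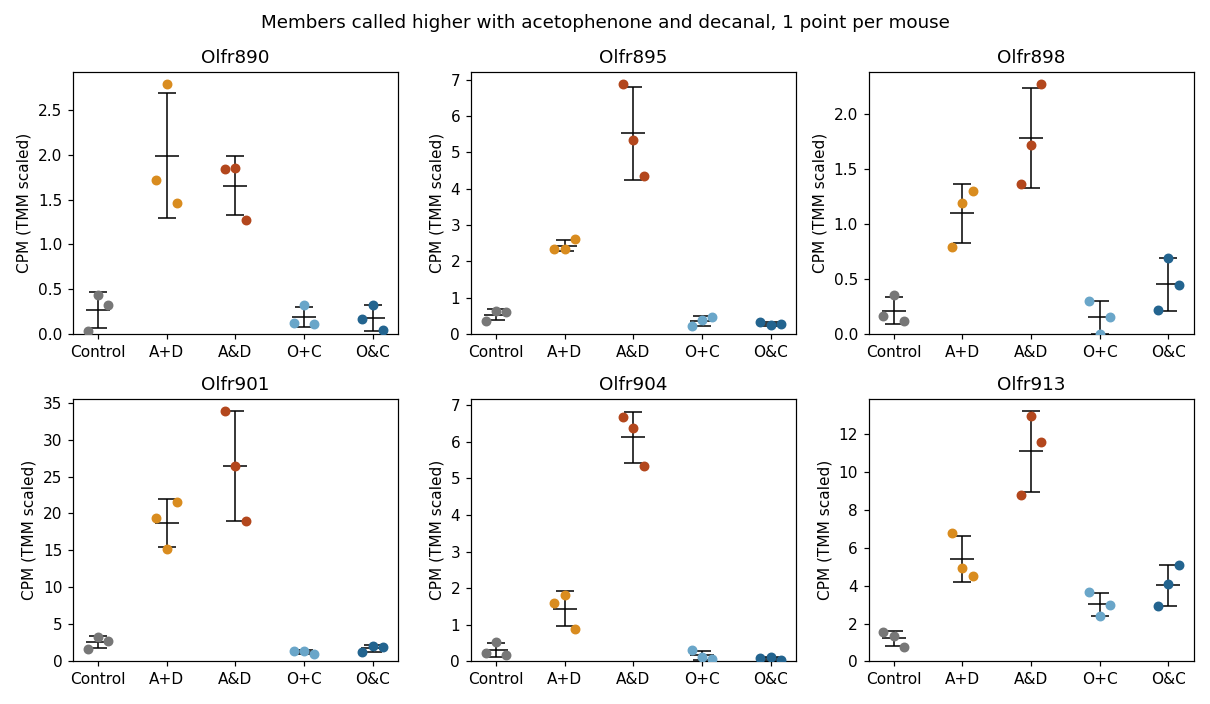
CPM of the 6 members called higher with acetophenone and decanal, 1 panel per gene, with 1 point per mouse and the mean ± SD of each group of 3. In all 6 panels, of genes picked by their calls, every A+D and A&D mouse lies above every Control mouse. In Olfr913 the O+C and O&C mice lie above Control as well.

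In the annotated order of the 110 receptors the 6 genes fell between position 44 (Olfr890) and position 59 (Olfr913), a run of 16 receptor genes in the second cluster. That run held 16 members, of which 9 were tested. The tested ones that were not called higher were Olfr906, Olfr910 and Olfr912. This span depends on the membership rule, since the 9 receptors set apart all lie outside it. Of these, Olfr874 at position 32 stood at 1.04, 13.4 and 23.0 CPM in Control, A+D and A&D. Olfr876 at position 34 stood at 0.823, 8.23 and 11.6 CPM. All 14 tested members of the first cluster missed the threshold in both comparisons, with log2 fold changes from -1.97 to 0.49 in A+D and from -1.33 to 0.43 in A&D. In MOR171, the largest family, 0 of 19 tested members were called in either comparison, with a median of -0.02 in A+D and -0.28 in A&D. Beside these, 0.296% (A+D) and 1.0% (A&D) of all genes were called higher, and 5.31% and 10.3% of intact receptors. With so few genes tested, these counts of 0 are descriptions and do not set the family or the cluster apart.

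The nearest relatives of 5 of the rising genes within the block were either too rare to test or not called. Olfr888, 92.8% identical to Olfr890 in its coding sequence, had at most 5 counts in any library and was not tested. Olfr894, 86.4% identical to Olfr895, had at most 7. Olfr887, the nearest relative of Olfr901 at 85.0%, stood at -0.44 ± 0.39 in A+D and 0.50 ± 0.38 in A&D. Olfr906, 84.0% identical to Olfr904, stood at -0.25 ± 0.73 and 0.54 ± 0.69. Olfr914, 81.3% identical to Olfr913, stood at -0.08 ± 0.47 and 0.19 ± 0.46. None of these 3 was called (adjusted p from 0.618 to 0.957), and the differences between relatives were not tested.

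**Figure D3:**
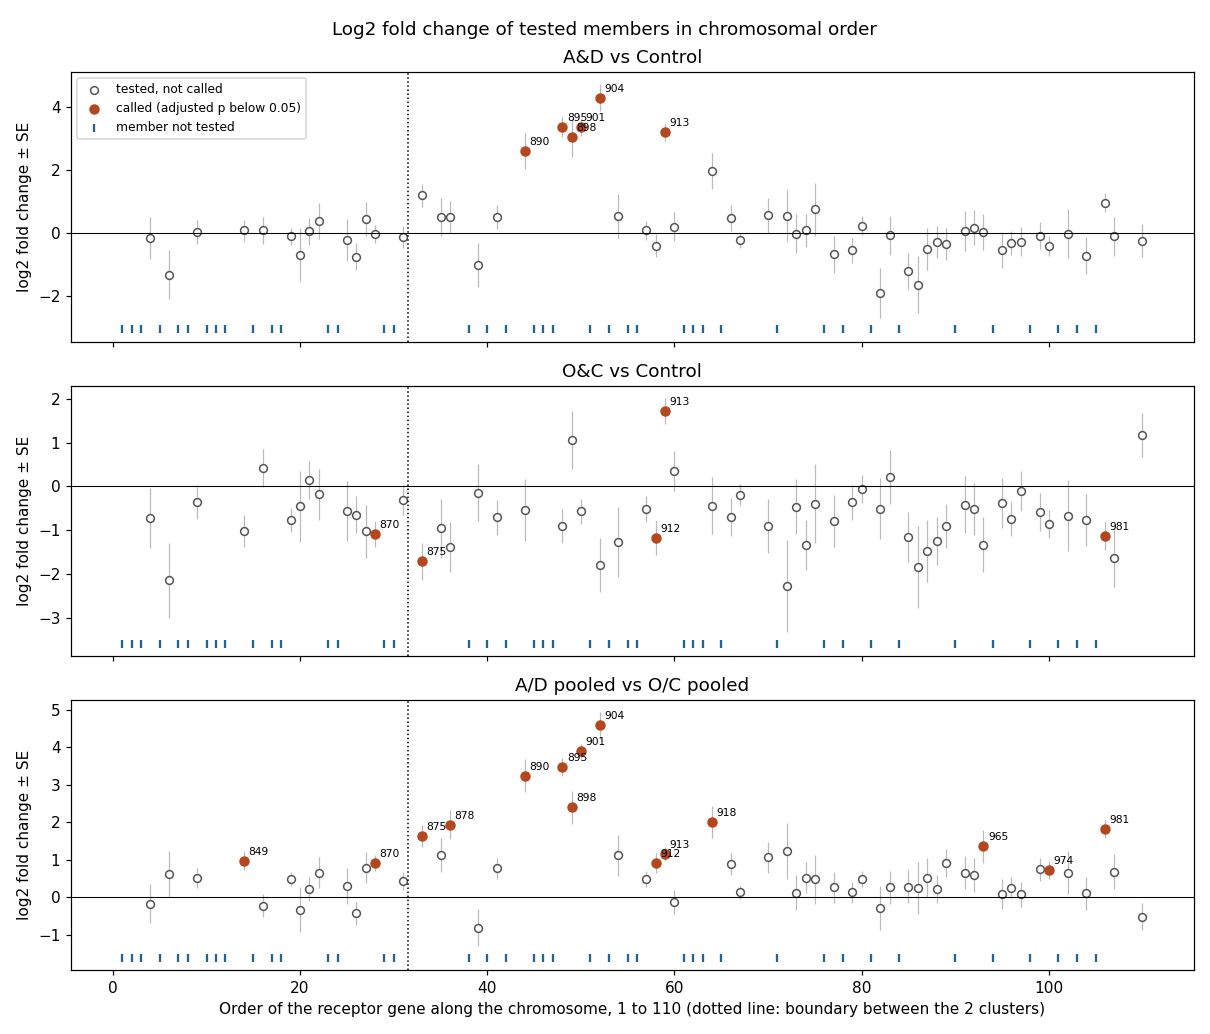
Log2 fold change ± SE (y axis) of the 60 tested members against their order along the chromosome (x axis) in 3 comparisons. Filled points are called, open points are not, ticks mark the 41 members not tested, and the dotted line separates the 2 clusters. The points called in A&D sit between positions 44 and 59, whereas the points called in O&C are spread over both clusters.

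In O+C against Control, where octanal and cis-3-hexenol shared 1 paper, 1 member was called higher and 2 lower. Olfr913 was called higher, 1 of 60 tested members (1.67%), beside 5.74% of all genes and 11.3% of intact receptors. Olfr981 and Olfr901 were called lower (3.33%), beside 2.35% of all genes and 3.7% of intact receptors. The median tested member stood at -0.54, that of all receptors at -0.33 and that of all genes at -0.01. Summed mature neuron markers were meanwhile higher than in Control, at 16356 to 19750 CPM, and immune markers lower; their part in the members' values was not tested.

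Olfr913 had 85, 60 and 76 counts in O+C, all above its 18 to 38 in Control, a rise of 1.30 ± 0.30 (adjusted p = 0.0117). Leaving out O+C 1 (0.0725) or Control 3 (0.063) ended the call. Olfr981 (ENSMUSG00000046678), of family MOR223, had 38, 56 and 54 counts in Control and 18, 23 and 23 in O+C. It fell by 1.20 ± 0.33 on the log2 scale (adjusted p = 0.0323), and the groups did not overlap. Olfr901 had 34, 34 and 25 counts in O+C and fell by 1.04 ± 0.30 (adjusted p = 0.0383). The call of Olfr981 was lost without Control 2 (0.103), Control 3 (0.101), O+C 1 (0.134), O+C 2 (0.0663) or O+C 3 (0.0847). Olfr901 lost its call without Control 2 (0.167), Control 3 (0.113), O+C 1 (0.095), O+C 2 (0.0718) or O+C 3 (0.152). With O+C 1, O+C 3, Control 2 or Control 3 left out, 0 members were called lower. Without O+C 2 the 1 member called lower was another gene, Olfr875 (adjusted p = 0.0297). Without Control 1 there were 3, as Olfr912 was called too (adjusted p = 0.0442).

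O&C against Control gave the same odorants from separate papers. Olfr913 rose again, with 67, 100 and 114 counts, by 1.73 ± 0.29 (adjusted p = 0.000839), and kept its call with any 1 library left out. It was the only member called higher (1.67%; 2 were without Control 2), beside 9.33% of all genes and 15.5% of intact receptors. Olfr875, Olfr870, Olfr981 and Olfr912 were called lower, 4 of 60 (6.67%), beside 5.41% of all genes and 8.2% of intact receptors. The median tested member stood at -0.68, all receptors at -0.39 and all genes at -0.04. The O+C and O&C comparisons share their Control libraries.

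Olfr875 (ENSMUSG00000058628), of family MOR161, had 29, 29 and 23 counts in Control and 7, 6 and 10 in O&C. It fell by 1.71 ± 0.42 (adjusted p = 0.0109), a call that held with any 1 library of the 2 groups left out. Olfr870 (ENSMUSG00000066899) had 47, 46 and 47 counts in Control and 18, 27 and 17 in O&C, and fell by 1.09 ± 0.30 (adjusted p = 0.0196). Olfr981 had 22, 25 and 17 counts in O&C and fell by 1.13 ± 0.33 (adjusted p = 0.0283). Olfr912, whose reads are shared with Olfr910, had 26, 73 and 71 counts in Control and 15, 27 and 29 in O&C, so that the groups overlapped; it fell by 1.17 ± 0.38 (adjusted p = 0.0474).

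These last 3 declines were not stable to single libraries. Olfr870 lost its call without O&C 1 (0.0724), O&C 3 (0.099), Control 1 (0.0513) or Control 3 (0.0517). Olfr981 lost it without Control 2 (0.0901), Control 3 (0.088), O&C 1 (0.0716), O&C 2 (0.0521) or O&C 3 (0.131), and Olfr912 without Control 2 (0.167), Control 3 (0.167), O&C 1 (0.177), O&C 2 (0.0871) or O&C 3 (0.0811). The lower count was 1 without O&C 1 or O&C 3 and 2 without Control 2 or Control 3. Without Control 3 it included Olfr904 (adjusted p = 0.0482), which was not called with all libraries. Without O&C 2 the count was 4 despite the lost calls, with Olfr849 newly among them (adjusted p = 0.0424). Olfr912 was also lost with a term for libraries low in Obp2a (0.0867).

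The scaling of the libraries changed several of the declines. When only receptor genes set the library scaling, the median of all genes moved up, in O+C by 0.24 and in O&C by 0.26. Relative to that, the split of members became 1 higher and 0 lower in O+C, and 2 higher and 1 lower in O&C. The second higher member was Olfr985, named here because it fell outside the naming rule, at 1.48 (adjusted p = 0.0431) against 1.17 (0.128) with the usual scaling. Olfr875 remained lower (-1.46, adjusted p = 0.0301). The median of the members stayed below 0 under this scaling, at -0.28 in O+C and -0.42 in O&C. The counts in A+D and A&D were 5 and 6 under this scaling too, with the median of all genes moved by 0.13 and -0.02. It moved by -0.15 in A&D against A+D and by 0.17 in the interaction.

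The A&D and A+D groups can be set against each other without the Control mice. Olfr904 and Olfr875 were called higher with separate papers, 2 of 60 tested members (3.33%), beside 0.12% of all genes and 2.42% of intact receptors. No member was lower, beside 0.0% of all genes; 0 were lower at an unadjusted p below 0.05, and DESeq2 called 0. Olfr904 rose from 1.44 ± 0.479 CPM in A+D to 6.13 ± 0.697 CPM in A&D, by 2.09 ± 0.37 (adjusted p = 0.0251). Its counts of 22 to 41 on 1 paper and 134 to 156 on separate papers lay far apart.

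Olfr875 moved in opposite directions from Control under the 2 deliveries. It had 15, 11 and 16 counts in A+D, below its Control counts of 23 to 29, and 81, 53 and 44 in A&D, above them. Against Control neither change was called, at -0.88 ± 0.39 in A+D (adjusted p = 0.339) and 1.19 ± 0.36 in A&D (adjusted p = 0.155). Between the deliveries it differed by 2.07 ± 0.39 (adjusted p = 0.0404). Its nearest relative Olfr874, 95.6% identical in coding sequence, stood at 1.04 ± 0.305 CPM in Control, 13.4 ± 3.74 CPM in A+D, and 23.0 ± 5.39 CPM in A&D. Olfr874 was thus above Control in both deliveries, while Olfr875 was below it in A+D.

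Each of the delivery calls was lost in 5 of the 6 fits that left out a library. Olfr904 lost its call without A+D 1 (adjusted p = 0.0897), A+D 3 (0.154), A&D 1 (0.175), A&D 2 (0.131) or A&D 3 (0.0595), with the fit limited to the 2 groups (0.0871), and with scaling on the receptors alone (0.098). Olfr875 lost it without A+D 1 (0.172), A+D 2 (0.155), A+D 3 (0.151), A&D 1 (0.353) or A&D 2 (0.121), with the 2 groups alone (0.287), and with scaling on the receptors (0.107). The count of called members was therefore 0 when A&D 1, A+D 1, A&D 2 or A+D 3 was left out, and 1 without A+D 2 or A&D 3. DESeq2 called 4 members, Olfr895 (1.18 ± 0.28 by edgeR, adjusted p = 0.246) and Olfr913 (1.03 ± 0.26, adjusted p = 0.364) among them. Olfr901, the most counted member, differed by 0.49 ± 0.23 between the deliveries and was not called (adjusted p = 0.994).

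**Figure D4:**
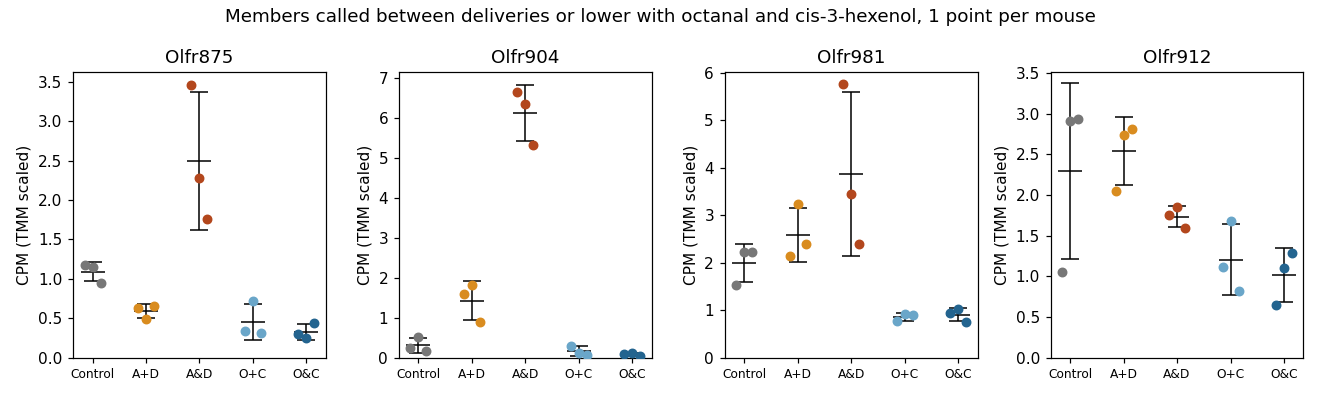
CPM of Olfr875, Olfr904, Olfr981 and Olfr912, 1 point per mouse with the mean ± SD of each group of 3. Olfr875 lies at 0.590 ± 0.090 CPM in A+D and 2.50 ± 0.876 CPM in A&D, on either side of Control at 1.09 ± 0.124 CPM.

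For octanal and cis-3-hexenol the delivery made no difference that could be called. By edgeR 0 of 60 members were called in either direction, beside 0.0% of all genes; 2 were higher and 1 lower at an unadjusted p below 0.05, and DESeq2 called 0. The members with the smallest p were Olfr958, lower in O&C by 1.28 ± 0.54, and Olfr898, higher by 1.57 ± 0.70 (both adjusted p = 0.9995). Olfr958 had 9, 23 and 23 counts in O+C and 7, 8 and 6 in O&C, and Olfr898 had 7, 0 and 4 against 5, 17 and 10, so that Olfr898 overlapped.

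Whether the delivery effect differed between the odorant pairs was tested as an interaction. By edgeR 0 of 60 members were called in either direction, beside 0.0% of all genes higher and 0.0104% lower. At an unadjusted p below 0.05, 1 member was higher and 5 were lower, and DESeq2 called 0. Olfr875 came first, with a delivery effect that was lower for octanal and cis-3-hexenol, at -2.54 ± 0.59 (adjusted p = 0.934), and Olfr904 next, at -2.99 ± 0.79 (adjusted p = 0.9998). With no filter on low counts both were called, Olfr875 at an adjusted p of 0.0435 and Olfr904 at 0.0311 by edgeR. Calls became more frequent in general in that fit, where 78 of 33222 genes, 21 of 1087 intact receptors and 2 of 94 members were lower.

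The odorant pairs were compared as the mean of A+D and A&D against the mean of O+C and O&C, with 6 mice on each side. Of 60 tested members 15 were higher with acetophenone and decanal (25.0%), beside 6.74% of all genes and 20.0% of intact receptors. Among these, Olfr890, Olfr898, Olfr904 and Olfr918 passed the count filter mostly through acetophenone and decanal libraries, so this share is a description. No member was higher with octanal and cis-3-hexenol, beside 9.03% of all genes and 13.5% of intact receptors; 0 reached an unadjusted p below 0.05 in that direction, and DESeq2 called 0. The median tested member stood at 0.57, all receptors at 0.32 and all genes at 0.03. With scaling on the receptors alone, 11 members were higher and 0 lower, and the median of the members was 0.37 while that of all genes moved by -0.20.

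All 6 genes described above were among these 15. Olfr904 was higher by 4.58 ± 0.35, Olfr901 by 3.90 ± 0.20, Olfr895 by 3.49 ± 0.24, Olfr890 by 3.24 ± 0.43 and Olfr898 by 2.40 ± 0.43 (adjusted p from 4.31e-10 to 0.00168). In each of these 5, which were picked by their calls, every A+D and A&D mouse lay above every O+C and O&C mouse. Olfr913 was higher by 1.16 ± 0.19 (adjusted p = 0.000691), but its lowest level with acetophenone and decanal, 4.49 CPM, lay under its highest with octanal and cis-3-hexenol, 5.07 CPM. All 6 kept their calls with any 1 library left out.

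Olfr918 (ENSMUSG00000046150), of family MOR164, was called in this comparison and in no comparison with Control. It had 2, 14 and 10 counts in Control, then 12, 10 and 29 (A+D), 34, 35 and 30 (A&D), 2, 6 and 9 (O+C) and 3, 8 and 7 (O&C). Its 30 to 35 counts in A&D lay above those of Control, whereas A+D overlapped Control. Between the pairs it was higher by 2.01 ± 0.43 (adjusted p = 0.00561), while its 1.96 ± 0.58 in A&D against Control was not called (adjusted p = 0.135, or 0.0321 with no filter on low counts). DESeq2 gave Olfr918 no adjusted p between the pairs. The call also leans on the acetophenone and decanal libraries through which Olfr918 passed the count filter.

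Other members differed between the pairs mainly with lower levels in octanal and cis-3-hexenol. Olfr981 was higher with acetophenone and decanal by 1.83 ± 0.23 (adjusted p = 5.83e-05), with 2.00 ± 0.402 CPM in Control, 2.59 ± 0.570 in A+D and 3.87 ± 1.73 in A&D. It stood at 0.864 ± 0.079 CPM in O+C and 0.912 ± 0.139 in O&C. Its A&D mean leaned on A&D 1, which had 135 counts beside 80 and 60. Olfr875 was higher by 1.63 ± 0.29 (adjusted p = 0.00161). Olfr870, a member of the first cluster, was higher by 0.92 ± 0.21 (adjusted p = 0.00755), and Olfr912 by 0.92 ± 0.27 (adjusted p = 0.0286). Olfr912 lost its call without A+D 3, A&D 1, A&D 2, O+C 1, O+C 3 or O&C 1 (adjusted p up to 0.0733). The remaining 4, Olfr849, Olfr878, Olfr965 and Olfr974, are named although the rule did not pick them, and were higher by 0.73 to 1.93. Of these, Olfr849 and Olfr878 kept their calls with any 1 library left out, although DESeq2 gave no adjusted p for Olfr878, nor for Olfr965. Olfr974 lost its call without A+D 3, A&D 2, A&D 3 or any O+C or O&C library but O+C 2 (adjusted p up to 0.103), and Olfr965 without any library but A+D 2 and O+C 2 (up to 0.104).

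**Figure D5:**
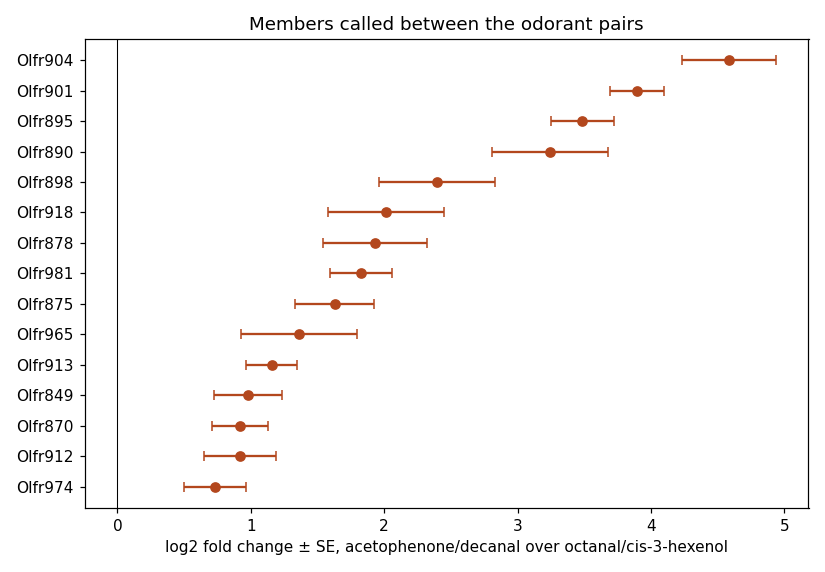
Log2 fold change ± SE of the 15 members called between the odorant pairs, acetophenone and decanal over octanal and cis-3-hexenol (x axis). All 15 lie to the right of 0, and Olfr904, Olfr901, Olfr895 and Olfr890 lie above 3.

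Olfr921 and Olfr873 show members with many counts and no call. Olfr921 had 75, 96 and 92 counts in Control, and its other libraries ran from 50 to 88. Its log2 fold changes against Control ran from -0.39 ± 0.25 in O+C to -0.05 ± 0.24 in A+D. Olfr873, the last receptor of the first cluster, stood between -0.30 ± 0.34 in O&C and 0.45 ± 0.33 in A+D. Neither was called in any of the 8 comparisons, which does not show that their levels were equal.

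The genes that carry or transport the receptor signal were read in the same libraries. Of 20 signalling and receptor transport genes 0 were called higher in A+D (list median 0.20), and 3 in A&D (0.40). With octanal and cis-3-hexenol, O+C gave 15 (0.63) and O&C 17 (0.84), and none was lower against Control in any group. Cnga2, a subunit of the cyclic nucleotide-gated channel, stood at 0.44 ± 0.17 in A&D (adjusted p = 0.283) and rose by 0.99 ± 0.17 in O&C (adjusted p = 0.000835). Rtp1, which brings receptors to the cell surface, rose by 0.48 ± 0.10 in O&C (adjusted p = 0.00355). The counts for these genes moved by over 1.5 times when single libraries were left out, namely to 3 in A+D without A+D 1, to 8 in O+C without Control 1, and to 0 or 1 in A&D without A&D 1, A&D 2 or any Control library.

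Of 18 genes that follow neuronal activity 1 was called higher in A+D (median 0.22), and 6 in A&D (0.91). O+C gave 10 (1.45) and O&C 11 (1.65), against medians of -0.04 to 0.02 for all genes. The shares of all genes called higher are those given with the signalling genes. Nr4a1, an immediate early transcription factor, stood at 0.01 ± 0.15 in A+D (adjusted p = 0.99). It rose by 1.0998 ± 0.1492 in A&D (adjusted p = 0.000283) and by 2.30 ± 0.15 in O&C (adjusted p = 5.92e-08). Between A&D and A+D it differed by 1.094 ± 0.149 (adjusted p = 0.00243). Its interaction was called lower, at -1.501 ± 0.208 (adjusted p = 0.0115). The A+D count was 2 without A+D 1, and 0 when A+D 2, A+D 3, Control 1 or Control 3 was left out.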

How the data were processed

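RNA bound to phosphorylated S6 ribosomes was sequenced from 15 mice after TruSeq stranded library preparation, per the labels' protocols. The authors deposited estimated counts per gene (expected counts, not scaled by library size). STAR 2.7.10b, Salmon 1.10.1, R 4.4.2 and build GRCm39 are named in the submitters' processing notes, and the annotation and strand setting are not given in the sources used here. Between 86.0% and 87.9% of values per library were whole.

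Counts were rounded, filtered with filterByExpr (minimum count 10), scaled by TMM and fitted with edgeR 4.0.16 (R 4.3.3; robust quasi-likelihood F test) as 1 model of 5 group means over 15 libraries, two-sided, with Benjamini-Hochberg adjustment over 19229 genes. Standard errors were obtained as |log2 fold change| over the root of F. The common dispersion was 0.0336. CPM values use TMM scaling. On data simulated for A+D against Control with 19229 genes, 74% of genes changed by 1 log2 unit and 97% of those changed by 2 were recovered. In addition, 11 unchanged genes were called. The changed genes were drawn only above a level that many members fell below, and every gene was given the common dispersion. Recovery was therefore not measured for rare members or for genes of wider spread. Coding sequences were aligned globally with Biopython 1.88, and identity is over the longer sequence. Proteins were not used here.

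Members and lists were chosen with earlier results of these data known. Named members were, per comparison with Control, the 10 highest and 6 lowest called; per other comparison, the 6 highest and 6 lowest called or, with none, the 2 of smallest p; the 5 with the highest mean CPM; and families or runs of neighbours with at least 3 called. Alternatives were DESeq2 1.42.0, its size factors, scaling on receptors, 2 other filters, the compared groups alone, a replicate block, a term for Obp2a below 10 CPM, and leaving out each library.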

Additional observations from a re-analysis of the deposited data

How the results depend on the processing

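For named members in the comparison that named them, 408 values under the alternatives stayed on the same side of the threshold in the same direction, 69 lost their call and 2 gained one. In other comparisons, Olfr898 (A+D) and Olfr895 and Olfr913 (A&D against A+D), among others, were called under some alternatives. With scaling on the receptors alone the members called were 0 lower in O+C, 2 higher and 1 lower in O&C, and 0 higher in A&D against A+D; the signalling list had 0 in A&D and the activity list 4 in A+D. With no low-count filter O&C had 7 of 94 members lower, beside 110 of 1087 intact receptors. The interaction had 2 of 94 lower (Olfr875 and Olfr904), beside 21 of 1087. In the same fit the signalling list had 5 (A+D) and 10 (A&D), and the activity list 4 (A+D). With the compared groups alone, A+D had 2 members higher, A&D against A+D had 0, the signalling list had 8 in A&D and the activity list 0 in A+D. DESeq2 gave 4 members higher in A&D against A+D, 2 and 5 signalling genes in A+D and A&D, and 4 activity genes in A+D. The cause of these shifts was not tested. Leaving out 1 library gave 3 to 6 members higher in A+D, 4 to 5 in A&D, 0 to 1 in O+C and 1 to 2 in O&C, 0 to 3 lower in O+C and 1 to 4 in O&C, 0 to 1 higher in A&D against A+D and 12 to 16 between the pairs. For the signalling list it gave 0 to 3 genes in A+D, 0 to 4 in A&D, 8 to 12 in O+C and 15 to 16 in O&C, and for the activity list 0 to 2, 5 to 6, 8 to 11 and 8 to 10. Replicate numbers did not pair the libraries: deviations of same-numbered libraries correlated between -0.33 and 0.14 (30 pairs, 3 over 0.1), and 0 of 15 libraries were most alike to one of their own number. With the replicate block, O+C had 1 member lower (Olfr901 was lost, adjusted p = 0.0675 by edgeR), A&D against A+D 1 higher (Olfr875 was lost, 0.101), and the lists 1 signalling gene in A&D and 0 activity genes in A+D. Depth is a limit, since 41 members had too few counts to test.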
